A study of Homo sapiens with 24 samples.

Results

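INTS11 is the RNA endonuclease of Integrator, and the comparison described here is that of new transcription in INTS11-dTAG DLD1 cells after 3 h of dTAG13 with that in the same line at 0 h. The 2 libraries labelled 3 h and the 2 labelled 0 h were taken by their titles from the second of the study's batches, and make up 4 of the 24 libraries of the series. DLD1 is a human colorectal adenocarcinoma cell line. In the INTS11 line a dTAG degron tag was knocked in at the INTS11 gene, so all 4 libraries carry the tagged allele and differ in the labelled time of dTAG13. Other libraries were used beside them in 3 places. The INTS11 line at 1 h of dTAG13 gave 2 libraries of the same batch. The N211del line gave 2 libraries at 3 h and 2 at 0 h of dTAG13 in that batch; in it the dTAG tag sits at INTS8 and a mutant INTS8, INTS8-N211del, is expressed ectopically. The first batch gave 2 INTS11 libraries at 3 h of dTAG13 and 2 at 3 h of DMSO, the vehicle. The labels give neither the clonal origin of the lines nor an untagged line given dTAG13, and the second batch has no vehicle group. Effects of losing the tagged protein, of dTAG13 itself and of 3 h of handling cannot be told apart in the second batch.

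Integrator binds RNA polymerase II that has stalled shortly after the start of a gene. Its endonuclease module cuts the nascent RNA and ends transcription early, and the same module forms the ends of small nuclear RNAs. Another module carries the phosphatase PP2A, which counteracts the kinases that release the polymerase into elongation. dTAG13 is a small molecule that brings a dTAG-tagged protein to a ubiquitin ligase, which marks it for degradation within hours. TT-seq reads RNA made during a short labelling pulse, so it follows synthesis more closely than the amount of stored RNA.

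The deposited values are per kilobase of gene, and those of the second batch are also scaled per library. A value below refers to the deposited scale unless a log2 change is named. The 4 libraries at 3 h and 0 h held 9022245 to 10803536 counting units each over the 6806 genes with a recovered length. Units were recovered from the whole-number steps of the values. Of the 7223 genes listed, 6950 reached a mean of 0.1 over the 12 libraries of the batch and were tested with limma on log2(value + 0.1). A Benjamini-Hochberg adjusted p under 0.05 was the threshold for calling a gene. INTS11 itself was not analysed here, and a tag that acts on protein could not be checked from RNA. The 2 libraries at 3 h differed by no more than sampling noise (1.01 chi-square units per gene, p = 0.372), and so did the 2 at 0 h (1.02, p = 0.119). They were kept as 2 samples a group because the labels call them biological duplicates, but their p-values may measure technical spread; counts with each pair taken as 1 sample were smaller and are given below for all genes and for the gene lists where they differ most. Of 21 colorectal epithelial markers, 14 were listed, and their summed values were 3416 and 3360 at 3 h against 3538 and 3370 at 0 h. Of 9 tested, 1 was called higher, the lectin gene LGALS4 at a log2 change of 1.40 with values under 1 in all 4 libraries, and 3 were called lower, the cadherin genes CDH17 and CDH1 at -0.16 and -0.09 and the keratin gene KRT18 at -0.09. EPCAM, an epithelial adhesion protein, had 127 and 122 at 3 h against 134 and 122 at 0 h, and CDX2, an intestinal transcription factor, had 66.7 and 70.4 at 3 h against 71.6 and 64.1 at 0 h. The claudin genes CLDN3 and CLDN4 and the keratin gene KRT20, also among these epithelial markers, were listed at 0 in all 4 libraries. COL1A1 alone of the fibroblast markers and ERG alone of the endothelial markers were listed, neither above 0.64, and no blood or immune marker was listed.

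After 3 h, 3847 of the 6950 genes tested (55.4%) differed from 0 h. Of all genes tested, 2503 (36.0%) rose and 1344 (19.3%) fell, and the median log2 change was 0.08, with a median standard error of 0.06. Large changes went mostly up: 860 genes (12.4%) rose and 72 (1.04%) fell by at least 1.5-fold, and at 2-fold the numbers were 372 higher and 5 lower. Both 3 h libraries lay above both 0 h libraries in 3391 genes (48.8%) and below both in 2029 (29.2%). With each pair averaged to 1 sample, 1626 genes rose and 649 fell. Centring each library on its median left 2207 higher and 2009 lower, and correcting each library for its trend with gene length turned the balance to 1530 higher and 2854 lower and moved the median log2 change to -0.08. The balance of directions therefore depended on the scaling, for large changes too: after the length correction 474 genes were higher and 191 lower by at least 1.5-fold.

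Short and weakly transcribed genes rose more often than long and strongly transcribed ones. In the shortest of 5 length quintiles, with a median length of 6617 bp, 48.0% rose and 7.34% fell, whereas in the longest quintile, with a median of 153330 bp, 26.8% rose and 33.7% fell. The median log2 change was 0.23 in the shortest quintile, then 0.13, 0.06 and -0.00, and -0.03 in the longest. In the N211del line the same quintiles had medians of 0.23, 0.18, 0.12, 0.15 and 0.22, with the lowest in the middle quintile and the shortest and longest within 0.01 of each other. Genes that rose by at least 1.5-fold had a median length of 18667 bp and those that fell by as much 75767 bp, against 33326 bp over all genes tested. Level was ranked in the N211del line at 0 h, whose libraries enter neither side of the comparison. The filter used the mean of all 12 libraries, so genes near 0 at 0 h could enter through later ones. By this ranking, 50.6% of the lowest quintile and 27.8% of the highest quintile rose. Of the 860 large risers, 325 (37.8%) averaged under 1 at 0 h, against 10.8% of all genes tested. The same 0 h libraries chose these risers, so part of that share is built in. In the N211del line at 0 h the median value was 1.83 for these risers and 13.7 for all genes tested. Across genes the log2 change had Spearman's rho of -0.28 with length (6745 genes) and -0.39 with level (6950 genes); length and level were themselves related (rho = -0.26), genes are not independent replicates, and the parts of length and level were not separated.

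**Figure D1:**
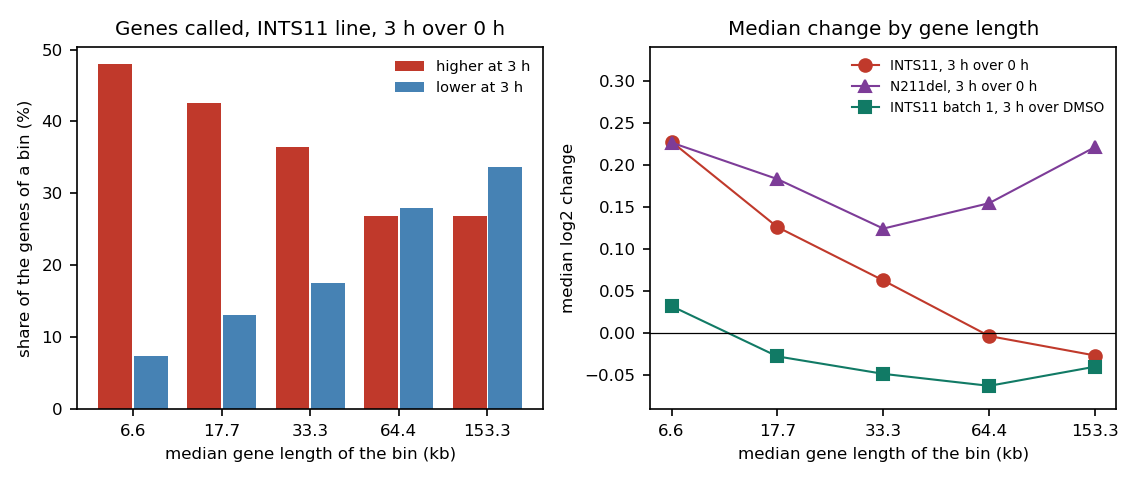
Left, the share of genes called higher (red) and lower (blue) at 3 h over 0 h in the INTS11 line, in % of the genes of each quintile of gene length, with the median length of the quintile in kb below it; the share that rose goes from 48.0% to 26.8% and the share that fell from 7.34% to 33.7%. Right, the median log2 change in the same quintiles for the INTS11 line (red circles), the N211del line (purple triangles) and the INTS11 line of the first batch at 3 h of dTAG13 over DMSO (green squares).

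**Figure D2:**
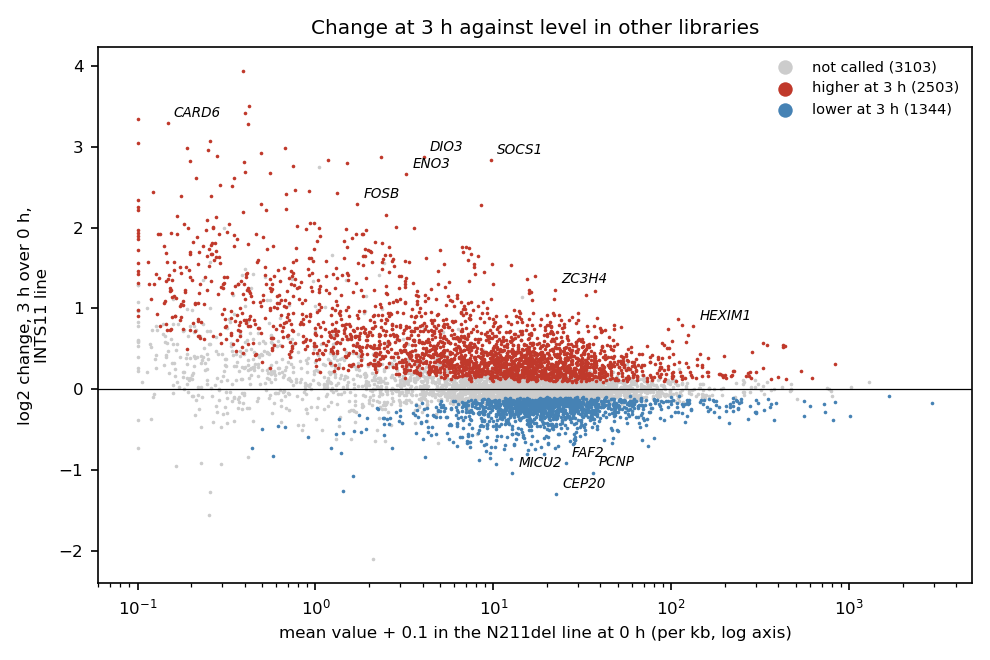
Each point is 1 of the 6950 genes tested, with its mean value + 0.1 in the N211del line at 0 h on a log axis and its log2 change at 3 h over 0 h in the INTS11 line on the vertical axis. The 2503 higher genes (red) spread widest at low levels, the 1344 lower genes (blue) stay mostly within 1 log2 unit, and 3103 genes (grey) were not called.

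Signalling inhibitors and metabolic enzymes were among the 15 genes named for the largest rises. By the naming rule these genes averaged at least 1 over the 4 libraries and had 3 h and 0 h pairs that did not overlap. Names of non-coding and uncharacterised loci were left out. Their log2 changes lay between 2.62 and 3.29, and 11 of the 15 averaged under 1 at 0 h. Among all genes tested the largest log2 change was 3.93. SOCS1, an inhibitor of JAK kinases that cytokines induce, had 41.1 and 41.6 at 3 h against 5.56 and 5.84 at 0 h. It rose by 2.84 ± 0.10 on the log2 scale (SE, adjusted p = 5.8e-07), and both 3 h libraries lay far above both 0 h libraries. DIO3, the deiodinase that inactivates thyroid hormone, had 30.3 and 33.0 at 3 h against 5.79 and 3.07 at 0 h, a log2 rise of 2.87 ± 0.46 (adjusted p = 0.00069). ENO3, the enolase of muscle glycolysis, had 15.2 and 14.2 at 3 h against 2.55 and 1.94 at 0 h, a log2 rise of 2.67 ± 0.12 (adjusted p = 9.7e-07). These 3 were the strongest of the 15 at 0 h.

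Several of the other large risers were close to silent before dTAG13. CARD6, a caspase recruitment domain protein, rested on 28 and 24 counting units at 3 h against 2 and 1 at 0 h, and its value was 2.30 and 2.02 at 3 h against 0.171 and 0.0956 at 0 h. Its log2 rise of 3.29 ± 0.31 (adjusted p = 3.1e-05) depends on the 0.1 added before the logarithm. SPAAR, which encodes a small polypeptide that dampens amino acid sensing, had 36 and 40 units at 3 h against 2 and 5 at 0 h. DLX1, a homeodomain transcription factor, had 24 and 18 units at 3 h against 3 and 1 at 0 h. In all 3 genes the 0 h libraries held at most 5 units, so the size of the fold is poorly fixed although the pairs were far apart. UPK2, a membrane protein of the bladder lining, had 2.50 and 1.78 at 3 h against 0 and 0.591 at 0 h; its adjusted p of 0.013 became 0.084 without replicate 1 of 0 h, 0.069 without replicate 1 of 3 h and 0.118 with the 4 libraries fitted alone.

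The remaining members of this group were not all better counted, with 6 and 6 units at 0 h in ASB2 and 5 and 6 in ACOT6. ASB2, the substrate-binding subunit of a ubiquitin ligase, had 2.12 and 1.64 at 3 h against 0.157 and 0.175 at 0 h, and SKIDA1, a nuclear protein with a SKI/DACH domain, had 3.69 and 3.67 at 3 h against 0.642 and 0.276 at 0 h. SLC25A45, a mitochondrial carrier, had 5.95 and 5.82 at 3 h against 0.629 and 0.906 at 0 h. DUSP19, a dual-specificity phosphatase of stress kinase signalling, had 2.16 and 1.96 at 3 h against 0.394 and 0.126 at 0 h. In each of these 4 genes both 3 h libraries exceeded both 0 h libraries by more than either pair's own gap. PIK3IP1, an inhibitor of PI3 kinase, had 2.18 and 2.49 at 3 h against 0.165 and 0.492 at 0 h, and KRT13, a keratin of stratified epithelia, had 3.78 and 2.99 at 3 h against 0.258 and 0.577 at 0 h. ACOT6, an acyl-CoA thioesterase, and PRDM7, a histone methyltransferase related to PRDM9, rose by 2.99 ± 0.54 and 2.82 ± 0.20 on the log2 scale; both have close paralogues, and the counting of reads they share with those is not stated. ACOT6 overlaps HEATR4 and SLC25A45 overlaps FRMD8 in the RefSeq annotation, and a long non-coding RNA overlaps SOCS1, so without knowledge of the strand used in counting these values may include the partner's reads.

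**Figure D3:**
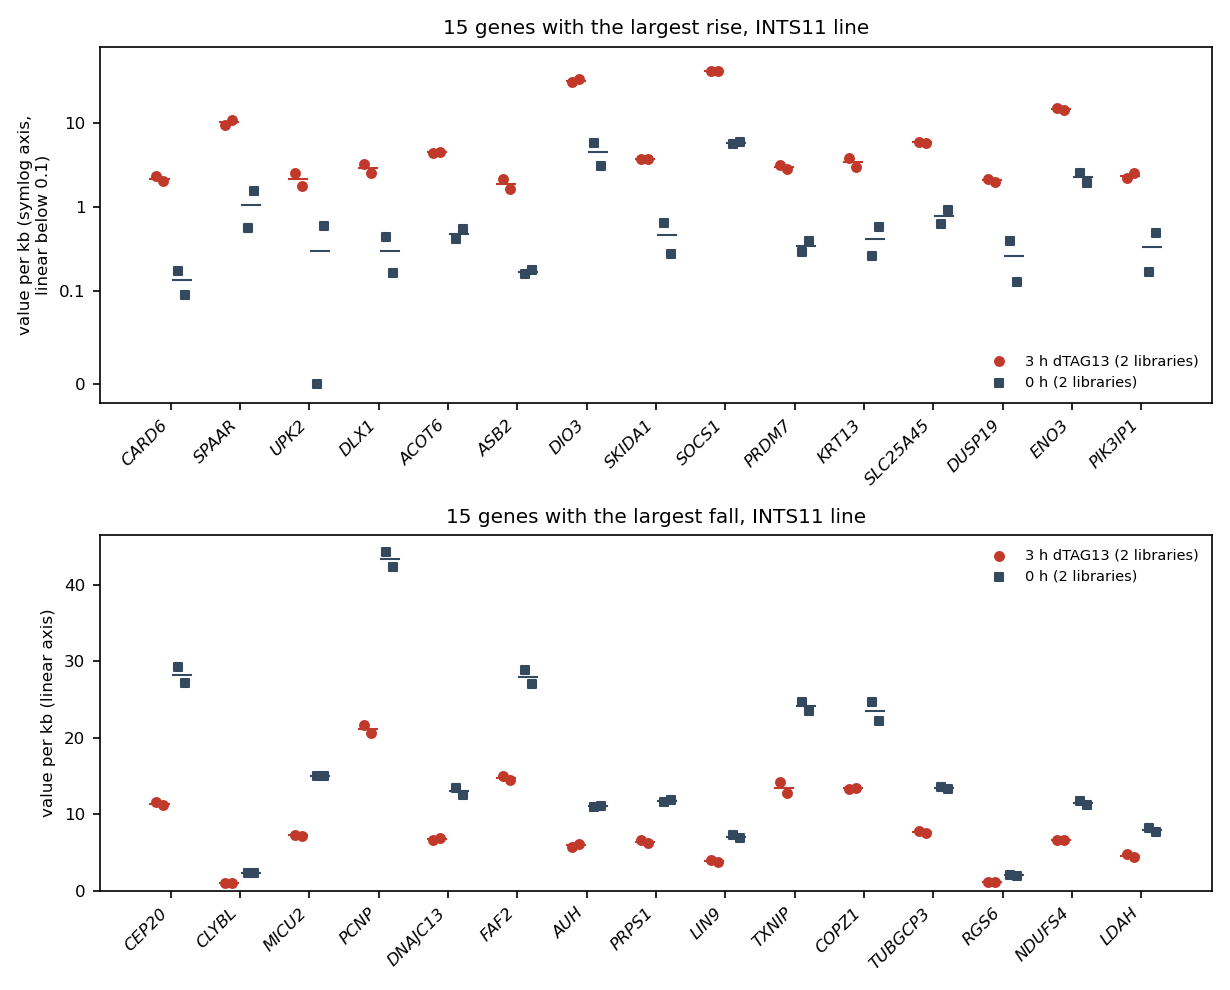
Values per kb in the 2 libraries at 3 h (red circles) and the 2 at 0 h (dark squares) with their means (lines). The 15 genes named for the largest rises are on a symmetric log axis that is linear below 0.1 (top). The 15 named for the largest falls are on a linear axis (bottom). The naming rule required that the pairs of all 30 genes do not overlap. PCNP at 21.6 and 20.7 (3 h) against 44.3 and 42.4 (0 h) is the most strongly transcribed of the fallers.

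The 15 genes named for the largest falls were taken by the same rule, so pairs that did not overlap were built in. Their log2 changes lay between -1.30 and -0.77, and 10 of the 15 were longer than the median gene. Among all genes tested the lowest log2 change was -2.10. CEP20, a protein of centriolar satellites that takes part in centriole and cilium formation, had 11.6 and 11.2 at 3 h against 29.2 and 27.1 at 0 h. It fell by 1.30 ± 0.05 on the log2 scale (adjusted p = 6.9e-07), with each 3 h library below both 0 h libraries by more than the gap within either pair. PCNP, a nuclear protein rich in PEST sequence, had 21.6 and 20.7 at 3 h against 44.3 and 42.4 at 0 h, and fell by 1.03 ± 0.05 (adjusted p = 1.1e-06). MICU2, a gatekeeper of the mitochondrial calcium uniporter, had 7.35 and 7.14 at 3 h against 14.97 and 14.99 at 0 h, and fell by 1.04 ± 0.04 (adjusted p = 6.9e-07). CEP20, MICU2, PCNP and CLYBL, a mitochondrial lyase of citramalyl-CoA, were 4 of the 5 genes that fell by at least 2-fold.

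The other fallers had varied roles. FAF2, an endoplasmic reticulum protein of protein degradation, had 15.003 and 14.5 at 3 h against 28.8 and 27.0 at 0 h. DNAJC13, a chaperone of endosomal sorting, had 6.66 and 6.88 at 3 h against 13.5 and 12.5 at 0 h. COPZ1, a coatomer subunit of Golgi vesicles, had 13.3 and 13.5 at 3 h against 24.7 and 22.2 at 0 h. All 3 genes of membrane transport and turnover thus stood well below their 0 h libraries. AUH, an enzyme of leucine breakdown, had 5.75 and 6.19 at 3 h against 11.008 and 11.1 at 0 h, and PRPS1, which makes the sugar phosphate used for nucleotides, had 6.68 and 6.23 at 3 h against 11.6 and 11.9 at 0 h. LIN9, a core subunit of the MuvB complex that regulates cell-cycle genes, had 3.98 and 3.81 at 3 h against 7.25 and 6.94 at 0 h, and fell by 0.85 ± 0.06 on the log2 scale (adjusted p = 5.0e-06). TUBGCP3, a subunit of the gamma-tubulin complex, NDUFS4, a subunit of respiratory complex I, and LDAH, a lipid droplet hydrolase, fell by 0.80, 0.78 and 0.77 on the log2 scale. TXNIP, an inhibitor of thioredoxin, had 14.2 and 12.8 at 3 h against 24.7 and 23.6 at 0 h. RGS6, a regulator of G-protein signalling, fell by 0.79 ± 0.10; it overlaps DPF3, and COPZ1 overlaps GPR84, in the annotation.

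Promoter sequences of 4 risers and 2 fallers are shown as examples. HEXIM1 and FOSB, described below, are shown as risers with a TATA box. A difference in TATA boxes between the risers and fallers shown therefore follows from this choice. SOCS1 and ENO3 are the strongest risers with more than 10 units in both 0 h libraries, and CEP20 and PCNP are strong fallers. Each runs from 250 bases before to 50 bases after the annotated start, 5′ to 3′ on the gene's strand, from RefSeq on GRCh38.p14. Capitals mark matches on either strand to any of 6 motifs: TATAAA for the TATA box, TGACGTCA for the cAMP response element, TGANTCA for the AP-1 element, CCGGAAG for the ETS element, CACGTG for the E-box and GGGCGG for the GC box.
SOCS1: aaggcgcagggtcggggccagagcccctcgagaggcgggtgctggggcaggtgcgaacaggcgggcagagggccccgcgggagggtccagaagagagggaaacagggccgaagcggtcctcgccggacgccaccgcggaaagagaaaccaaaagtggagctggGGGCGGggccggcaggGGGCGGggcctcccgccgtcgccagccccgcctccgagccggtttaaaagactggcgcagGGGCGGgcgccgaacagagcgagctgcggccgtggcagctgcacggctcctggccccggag
ENO3: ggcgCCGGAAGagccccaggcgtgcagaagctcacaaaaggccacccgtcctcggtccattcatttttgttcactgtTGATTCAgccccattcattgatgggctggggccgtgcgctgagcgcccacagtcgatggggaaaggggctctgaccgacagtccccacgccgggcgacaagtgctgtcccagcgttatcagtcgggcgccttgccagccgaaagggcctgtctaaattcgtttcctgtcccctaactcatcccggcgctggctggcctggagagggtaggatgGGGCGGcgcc
FOSB: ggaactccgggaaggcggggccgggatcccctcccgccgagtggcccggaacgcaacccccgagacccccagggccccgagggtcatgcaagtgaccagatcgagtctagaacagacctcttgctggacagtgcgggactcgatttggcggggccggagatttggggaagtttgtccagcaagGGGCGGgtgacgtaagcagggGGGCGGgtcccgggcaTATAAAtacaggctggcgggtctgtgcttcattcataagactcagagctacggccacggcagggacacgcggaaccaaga
HEXIM1: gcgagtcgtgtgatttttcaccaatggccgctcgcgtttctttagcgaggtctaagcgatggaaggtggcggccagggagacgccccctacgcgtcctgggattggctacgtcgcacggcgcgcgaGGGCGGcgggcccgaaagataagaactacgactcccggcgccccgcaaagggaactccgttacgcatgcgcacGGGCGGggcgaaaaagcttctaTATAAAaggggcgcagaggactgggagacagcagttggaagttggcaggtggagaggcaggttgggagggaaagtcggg
CEP20: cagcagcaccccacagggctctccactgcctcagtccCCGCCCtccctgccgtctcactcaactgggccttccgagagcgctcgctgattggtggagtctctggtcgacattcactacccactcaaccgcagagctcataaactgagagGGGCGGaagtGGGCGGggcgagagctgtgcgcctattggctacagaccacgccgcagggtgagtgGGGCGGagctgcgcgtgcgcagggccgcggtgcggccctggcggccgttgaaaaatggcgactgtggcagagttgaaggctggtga
PCNP: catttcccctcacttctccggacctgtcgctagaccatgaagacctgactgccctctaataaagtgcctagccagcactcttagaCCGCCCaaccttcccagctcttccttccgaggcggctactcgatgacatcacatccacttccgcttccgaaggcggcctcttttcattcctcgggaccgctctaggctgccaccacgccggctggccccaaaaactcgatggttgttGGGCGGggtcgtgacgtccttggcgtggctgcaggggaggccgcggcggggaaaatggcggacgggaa
SOCS1 lies at chr16:11256155-11256454 on the minus strand, ENO3 at chr17:4950302-4950601 on the plus strand, FOSB at chr19:45467746-45468045 on the plus strand and HEXIM1 at chr17:45148225-45148524 on the plus strand. CEP20 lies at chr16:15888554-15888853 on the minus strand and PCNP at chr3:101573930-101574229 on the plus strand. FOSB and HEXIM1 each hold 1 TATA box and 2 GC boxes, ENO3 holds 1 AP-1 element, 1 ETS element and 1 GC box, and SOCS1 holds 3 GC boxes. CEP20 holds 4 and PCNP 2 GC boxes and neither holds another of these motifs. The promoter of ZC3H4, a riser described below, is not shown and holds 1 cAMP response element, 1 GC box and no TATA box.

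Over the genes whose promoter was in the RefSeq table, the AP-1 element occurred in 10.7% of 281 promoters of genes higher by at least 2-fold, in 8.06% of 645 higher by at least 1.5-fold and in 1.59% of 63 lower by at least 1.5-fold. It occurred in 5.04% of the 5615 promoters of all genes tested and in 7.76% of all 27305 promoters of the table. The TATA box occurred in 9.61% of promoters of the 2-fold risers, 4.76% of those of the fallers and 5.56% of those of all genes tested. The ETS element went the other way, with 8.54% in the 2-fold risers, 17.5% in the fallers and 17.2% in all genes tested. The GC box was found in 60.1% of the 2-fold risers, 71.4% of the fallers and 71.3% of all genes tested. The median GC content was 62.7% in promoters of the 2-fold risers, 63.3% in those of the fallers and 65.3% in those of all genes tested. The cAMP response element (1.42%, 4.76% and 3.10%) and the E-box (6.41%, 4.76% and 10.0%) are given in the same order. These are shares of windows that hold the letters and were not tested; the percentages of the fallers rest on 63 promoters, of which 1 holds the AP-1 element and 3 the TATA box.

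The gene lists below were chosen with earlier results of these data known, so each count is a description, to be read against the 36.0% of all genes tested that rose, the 19.3% that fell and their median log2 change of 0.08. With each noise-level pair averaged fewer members were called: lower genes numbered 0 among P-TEFb control genes, 10 among polymerase II, Mediator and initiation factors, 8 among ribosomal protein genes and 1 among MAPK feedback genes, and no pausing factor was called. Genes of the transcription machinery went both ways, with single members far out. HEXIM1, which holds the elongation kinase P-TEFb inactive, had 206 and 213 at 3 h against 122 and 121 at 0 h. It rose by 0.78 ± 0.03 on the log2 scale (adjusted p = 5.8e-07) and was the only riser among 8 P-TEFb control genes. The 3 fallers of this list included the super elongation complex subunit MLLT3, which fell by 0.19 on the log2 scale, and CDK12, an elongation kinase. Of 12 pausing and elongation factors, 2 rose and 1 fell, none by 1.5-fold; SUPT5H, a subunit of the pausing factor DSIF, had 25.9 and 26.2 at 3 h against 24.7 and 23.5 at 0 h. That balance turned to 1 higher and 7 lower with centred libraries and to 0 higher and 10 lower after length correction.

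Of 24 Integrator subunit genes 6 were listed and tested, and 4 rose and 1 fell, with a median log2 change of 0.29. After length correction 2 were higher and 1 lower, with a median of 0.04, and in the first batch, against vehicle, 2 were higher and 1 lower, with a median of -0.06. NABP1, a single-stranded DNA-binding subunit, had 140.5 and 146 at 3 h against 84.4 and 81.1 at 0 h, a log2 rise of 0.79 ± 0.04. INTS2, a scaffold subunit, had 10.2 and 10.3 at 3 h against 7.28 and 6.77 at 0 h, a log2 rise of 0.54 ± 0.05. NABP2 and INTS1 rose by 0.41 and 0.16, and INTS10 fell by 0.14 on the log2 scale. Of 7 PP2A subunit genes 1 rose and 3 fell; PPP2R2A, a regulatory B subunit, fell by 0.32 and the scaffold subunit PPP2R1A rose by 0.12 on the log2 scale.

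Among 13 termination, cap-binding and nuclear exosome factors, 2 rose by more than 1.5-fold and 8 fell by less. ZC3H4, a zinc-finger protein that ends unproductive transcription, had 33.6 and 32.9 at 3 h against 15.02 and 13.2 at 0 h. It rose by 1.23 ± 0.06 on the log2 scale (adjusted p = 7.9e-07). DIS3L, a catalytic subunit of the cytoplasmic exosome, rose by 0.66 ± 0.07. The fallers of this list included the exosome subunit EXOSC2 at -0.29, the cap-binding protein NCBP3 at -0.28 and the nuclease XRN2 at -0.16. Of 10 cleavage and polyadenylation factors, none rose and 5 fell, with SYMPK, the scaffold that the cleavage machinery shares with histone processing, at -0.44 ± 0.05, and WDR82, which partners ZC3H4, at -0.35 ± 0.05. RNA polymerase II, Mediator and initiation factors gave 6 higher and 21 lower of 43, with MED18 and MED7 of Mediator at 0.77 and 0.45 and MED4 of Mediator and TAF2 of TFIID at -0.49 and -0.48. Splicing factors gave 1 higher and 10 lower of 23, with SF3B1, the branch-point recognition subunit, at -0.48, and the lone riser HNRNPA2B1 at 0.14. Of 11 snRNA-activating and RNA polymerase III factors, 2 rose and 5 fell, with SNAPC1 at 0.24 and BDP1 of TFIIIB at -0.53. No replication-dependent histone gene was listed.

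Immediate early transcription factors rose unevenly. Of 8 AP-1 and ATF genes, 6 rose and none fell, with a median log2 change of 0.42. FOSB had 12.3 and 12.7 at 3 h against 2.41 and 2.51 at 0 h, a log2 rise of 2.30 ± 0.11 (adjusted p = 9.7e-07). FOS had 105 and 102 at 3 h against 75.4 and 68.4 at 0 h, a log2 rise of 0.53 ± 0.05, while JUN had 140.1 and 139 at 3 h against 139 and 119 at 0 h and was not called (adjusted p = 0.12). ATF3, a stress-induced repressor, rose by 0.79 and JUNB by 0.23 on the log2 scale. FOSB, the weakest of these at 0 h, thus had the largest change, and the abundant JUNB and JUN had small ones.

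Of 19 EGR, NR4A and other immediate early genes, 11 rose and 3 fell, a balance that became 5 higher and 8 lower after length correction. EGR3 had 13.8 and 14.5 at 3 h against 3.49 and 3.44 at 0 h, a log2 rise of 1.995 ± 0.10. EGR2 had 18.8 and 17.9 at 3 h against 5.76 and 5.22 at 0 h, a log2 rise of 1.72 ± 0.16. EGR1, the most strongly transcribed of these zinc-finger factors, had 498 and 504 at 3 h against 605 and 590 at 0 h and fell by 0.25 ± 0.04. The EGR family was therefore split, with EGR2 and EGR3 up and EGR1 down. The orphan nuclear receptor genes NR4A2, NR4A3 and NR4A1 rose by 1.53, 1.33 and 0.24 on the log2 scale. RHOB, a short-lived small GTPase, had 647 and 666 at 3 h against 822 and 823 at 0 h and fell by 0.33 ± 0.03. Of 7 KLF genes, 2 rose and 3 fell, with KLF2 at -0.51 and KLF6 at -0.41.

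Feedback inhibitors of signalling followed no single direction. Of 15 MAPK feedback genes 8 rose and 4 fell, against 3 higher and 6 lower after length correction. The ERK phosphatase genes DUSP7, DUSP2 and DUSP4 rose by 0.78, 0.59 and 0.53 on the log2 scale, and ERRFI1, an inhibitor of the EGF receptor, had 399.6 and 397 at 3 h against 497 and 481 at 0 h and fell by 0.30 ± 0.03. Of 6 SOCS and cytokine feedback genes 3 rose and 1 fell, against 1 higher and 2 lower both with centred libraries and after length correction. SOCS1 at 2.84 stood far from the other members, with CISH at 0.23 and SOCS5 at -0.19.

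Of 20 interferon-stimulated genes, 13 rose and 1 fell, with a median log2 change of 0.41; the counts were 9 and 4 after length correction. MX1, an antiviral GTPase, had 3.37 and 3.59 at 3 h against 1.25 and 1.23 at 0 h, a log2 rise of 1.41 ± 0.08 (adjusted p = 1.6e-06). IFITM1, a membrane protein that blocks viral entry, had 5.46 and 5.57 at 3 h against 1.44 and 1.08 at 0 h, a log2 rise of 2.06 ± 0.47; it has close paralogues in IFITM2 and IFITM3. MX2, ISG20 and OASL rose by 1.07, 0.90 and 0.66 on the log2 scale. IFIT1 fell by 0.54 ± 0.21, and ISG15, with 41.7 and 54.7 at 3 h against 48.1 and 42.9 at 0 h, was not called. NF-kB targets gave 9 higher and 3 lower of 16, and 3 higher and 8 lower after length correction; the signalling adaptor TRAF1 had 18.6 and 19.3 at 3 h against 7.32 and 7.47 at 0 h, and the chemokine CXCL8 had 89.0 and 83.4 at 3 h against 113 and 116 at 0 h. The TRAF1 pairs were far apart in the upward direction and the CXCL8 pairs in the downward one.

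Of 21 hypoxia and glycolysis genes 12 rose and 2 fell, led by ENO3 and by ADM, the vasodilator adrenomedullin, at 0.72, with SLC2A3, a glucose transporter, at -0.20. Of 15 Wnt targets 9 rose and 1 fell, and 7 were higher and 5 lower after length correction; the guidance receptor EPHB3 rose by 0.87 ± 0.07, and AXIN2, the feedback inhibitor of the pathway, had 239 and 233 at 3 h against 312 and 304 at 0 h and fell by 0.38 ± 0.03. TGF-beta and BMP targets gave 7 higher and 1 lower of 11, and 5 and 4 after length correction, with the inhibitor SMAD6 at 1.39 and the transcription factor SNAI1 at 0.70. YAP targets gave 6 higher and 2 lower of 12, with FJX1, a secreted signalling protein, at 0.72 and the LIM protein AJUBA at 0.55. Of 17 p53 targets 9 rose and 2 fell, and 4 rose and 5 fell after length correction; SERTAD1, a cyclin-dependent kinase regulator, rose by 0.82, whereas MDM2, which inhibits p53, fell by 0.18. DREAM and MuvB genes gave 8 higher and 2 lower of 13, with the E2F factors E2F1, E2F2 and E2F7 at 0.63, 0.56 and 0.48 beside the fall of LIN9. DNA replication genes gave 9 higher and 3 lower of 22, but 7 and 8 with centred libraries and 2 and 13 after length correction; the cyclin CCNE1 rose by 0.55 and POLE2, a polymerase epsilon subunit, fell by 0.50. Mitotic genes gave 5 higher and 6 lower of 20, but 5 and 2 with averaged pairs, 5 and 11 with centred libraries and 2 and 14 after length correction.

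Stress and lipid lists were mixed. ATF4 targets gave 7 higher and 5 lower of 16, and 1 higher and 9 lower after length correction; TRIB3, a pseudokinase induced by ATF4, had 69.2 and 68.0 at 3 h against 108 and 101 at 0 h, a log2 fall of 0.61 ± 0.05. Heat shock and chaperone genes gave 3 higher and 9 lower of 18, but 3 and 2 with averaged pairs and 0 and 14 after length correction, with HSPB1 at 0.31 and HSP90AA1 at -0.38. Cholesterol genes gave 5 higher and 4 lower of 14, and 4 and 5 with centred libraries; the kinase PMVK rose by 1.08 ± 0.07 and INSIG1, which holds sterol regulators in the endoplasmic reticulum, had 169 and 166 at 3 h against 237 and 227 at 0 h.

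In the lists of constitutive genes more members fell than rose, most of them by small amounts. Cytosolic ribosomal protein genes gave 2 higher and 16 lower of 32, with a median log2 change of -0.12 and RPL22 at -0.29. Proteasome genes gave none higher and 9 lower of 25, with PSMC6, a subunit of the regulatory ATPase ring, at 28.6 and 28.4 at 3 h against 45.3 and 45.4 at 0 h, a log2 fall of 0.67 ± 0.05. Respiratory chain genes gave 2 higher and 10 lower of 32, with NDUFS4 at -0.78, UQCRB of complex III at -0.52 and SDHB of complex II at -0.48. PSMC6 and NDUFS4 stood apart from lists whose other members moved less. Mitochondrial calcium uptake genes gave 3 lower of 8, led by MICU2 at -1.04. Centriole and centrosome genes gave 6 higher and 10 lower of 25: CEP20 and TUBGCP3 fell furthest, PLK4, the kinase that starts centriole duplication, had 16.7 and 16.9 at 3 h against 26.001 and 23.1 at 0 h, and CEP164 of the ciliary appendages rose by 0.39 on the log2 scale.

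**Figure D4:**
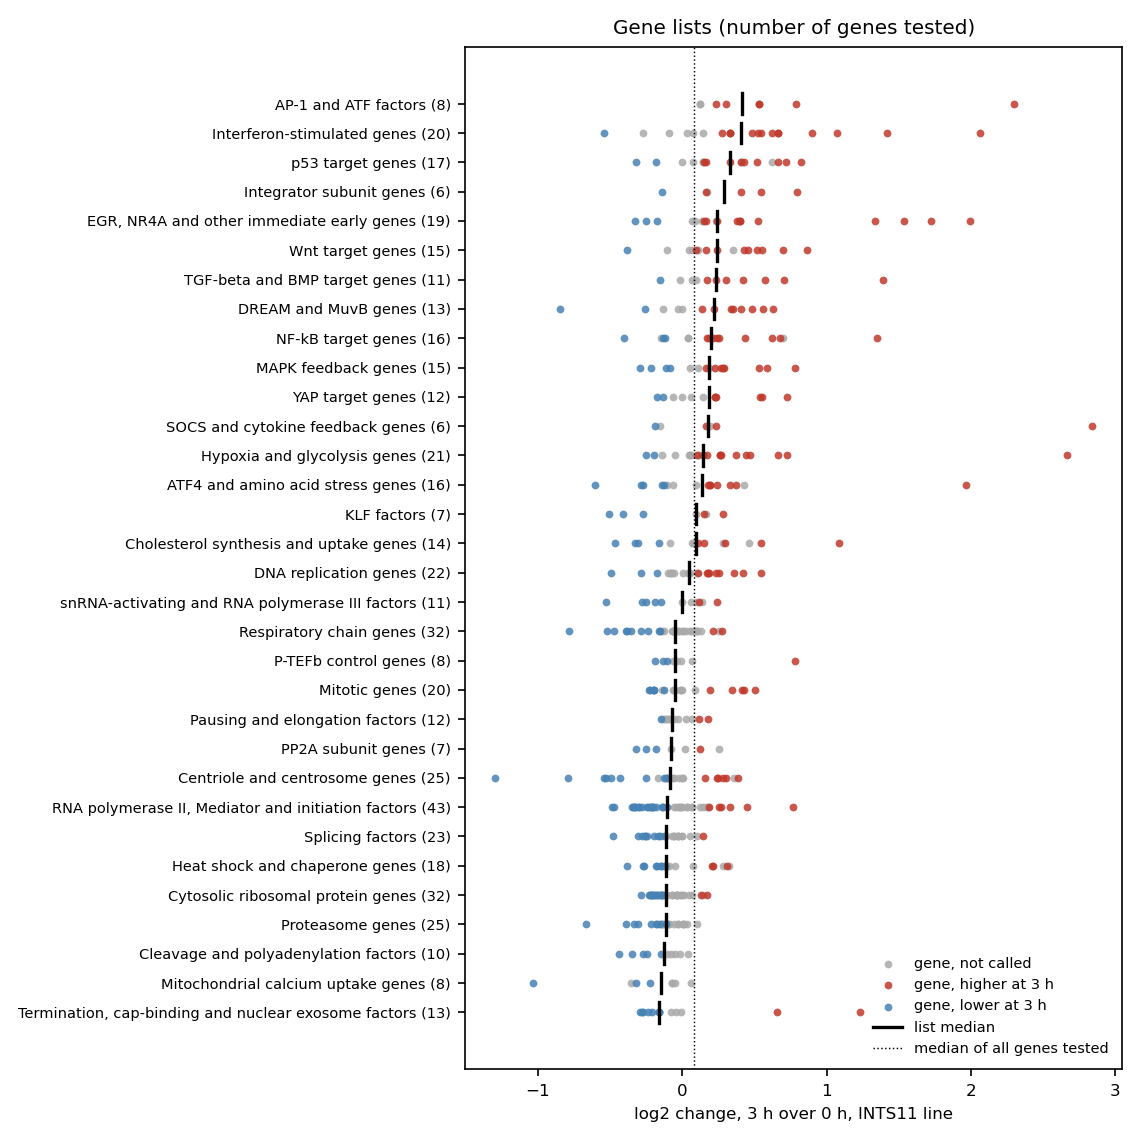
Log2 change at 3 h over 0 h in the INTS11 line for every tested gene of 32 lists, ordered by list median (black bar), with genes called higher in red, lower in blue and not called in grey; the dotted line is the median of all genes tested (0.08). AP-1 and interferon lists have medians of 0.42 and 0.41, and single genes (SOCS1, ENO3, FOSB, CEP20, MICU2) lie far outside the rest of their lists.

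For the strongest responders the values at 1 h were near those at 3 h. The 1 h and 3 h comparisons share the 0 h libraries, so their values are set side by side only. At 1 h, 3197 genes (46.0%) were higher and 685 (9.86%) lower than at 0 h. SOCS1 stood 2.74 above 0 h at 1 h and 2.84 at 3 h on the log2 scale, FOSB 2.39 and 2.30, and HEXIM1 0.73 and 0.78. CEP20 stood at -1.27 at 1 h and -1.30 at 3 h on the log2 scale, and its value was 29.2 and 27.1 at 0 h, 12.2 and 11.1 at 1 h and 11.6 and 11.2 at 3 h. PCNP had 44.3 and 42.4 at 0 h, 23.6 and 22.1 at 1 h and 21.6 and 20.7 at 3 h. MICU2 had 14.97 and 14.99 at 0 h, 8.70 and 8.23 at 1 h and 7.35 and 7.14 at 3 h. The CEP20 libraries at 1 h and 3 h overlapped, whereas PCNP and MICU2 were lower in both 3 h libraries than in both 1 h libraries. Over all genes tested the median log2 change from 1 h to 3 h was -0.09, and the share without overlap was not counted. A further fall of PCNP and MICU2 after 1 h is not read from this, since the direct test was not stable.

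Tested directly, 1083 genes (15.6%) differed between 3 h and 1 h, and 33 genes (0.475%) were higher and 1050 (15.1%) lower at 3 h than at 1 h, with a median log2 change of -0.09, but this count was not stable. It was 108 higher and 84 lower with centred libraries, 0 in either direction with noise-level pairs averaged (1414 genes at an unadjusted p under 0.05), 1 gene in all without replicate 1 of 1 h, 1 without replicate 1 of 3 h and 3 without replicate 2 of 3 h. The 1 h libraries differed from each other by more than sampling noise (1.496 chi-square units per gene). No gene is therefore named from it.

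Whether the INTS11 line responded differently from the N211del line was tested as the difference of the 3 h over 0 h changes in 1 fit, and 3540 genes (50.9%) passed. The INTS11 change lay above that of N211del for 1053 genes (15.2%) and below it for 2487 (35.8%), with a median of -0.11. Centring turned these to 1993 above and 1752 below, so the lean to lower values depended on the scaling. On its own, the N211del line had 3454 genes (49.7%) higher and 956 (13.8%) lower at 3 h. The N211del libraries enter neither side of the INTS11 comparison. They do share its filter and its estimate of the spread, so the INTS11 calls are not fully independent of them. Of the 860 genes that rose by at least 1.5-fold in INTS11 cells, 623 rose and 13 fell in N211del cells, with medians of 0.91 in INTS11 and 0.77 in N211del. Of the 72 that fell by as much, 27 fell and 21 rose in N211del cells, with medians of -0.68 in INTS11 and -0.02 in N211del. So 72.4% of the large risers and 37.5% of the large fallers were called in the same direction in N211del cells. The genes were chosen on the INTS11 libraries, which draws the N211del values toward the middle of all genes.

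Among the strong responders, CARD6 showed the largest difference in favour of INTS11: N211del cells had 0.0506 and 0.101 at 3 h against 0 and 0.0949 at 0 h, and the INTS11 change exceeded that of N211del by 2.98 ± 0.44 on the log2 scale (adjusted p = 0.00046). SLC25A45 had 2.66 and 2.77 at 3 h against 1.70 and 1.10 at 0 h in N211del cells, a difference between the lines of 1.86 ± 0.37. ENO3 had 12.9 and 11.9 at 3 h against 2.90 and 3.34 at 0 h in N211del cells, a difference of 0.71 ± 0.17. All 3 thus rose further in INTS11 cells, a direction favoured by their choice on the INTS11 libraries that also enter this difference. SOCS1 went the other way, with 93.5 and 109 at 3 h against 10.7 and 8.50 at 0 h in N211del cells and a difference of -0.55 ± 0.14. FOSB had 22.1 and 21.7 at 3 h against 1.37 and 1.85 at 0 h in N211del cells, a difference of -1.40 ± 0.15. HEXIM1 had 379.6 and 385 at 3 h against 131 and 134 at 0 h in N211del cells, a difference of -0.75 ± 0.04. ZC3H4 had 32.2 and 32.2 at 3 h against 21.9 and 22.3 at 0 h in N211del cells, a difference of 0.69 ± 0.08.

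Most of the strong fallers also differed between the lines. These genes too were chosen on the INTS11 libraries, which favours a larger change in INTS11 cells. CEP20 had 20.2 and 19.6 at 3 h against 22.7 and 22.1 at 0 h in N211del cells, a difference of -1.13 ± 0.08. PCNP had 38.2 and 36.5 at 3 h against 34.7 and 37.5 at 0 h in N211del cells, a difference of -1.08 ± 0.07. LIN9 had 10.9 and 10.985 at 3 h against 9.23 and 9.80 at 0 h in N211del cells, a difference of -1.05 ± 0.08. In N211del cells the PCNP pairs overlapped, the CEP20 pairs lay slightly apart and LIN9 was slightly higher at 3 h. LDAH was the exception among the 15 fallers: it had 4.01 and 3.95 at 3 h against 8.81 and 9.09 at 0 h in N211del cells and fell less in INTS11 cells, by a difference of 0.38 ± 0.08. CLYBL was the member for which no difference was called (-0.17 ± 0.14, adjusted p = 0.34).

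Other genes were named for the size of the difference itself. NDRG1, a hypoxia-induced gene, had 20.7 and 20.5 at 3 h against 15.3 and 15.1 at 0 h in INTS11 cells, whereas N211del cells had 24.6 and 25.01 at 3 h against 2.005 and 2.33 at 0 h, a difference of -3.02 ± 0.08. KHDRBS3, an RNA-binding protein, had 1.67 and 1.81 at 3 h against 0.914 and 0.988 at 0 h in INTS11 cells and 8.60 and 8.65 at 3 h against 0.719 and 0.792 at 0 h in N211del cells, a difference of -2.55 ± 0.12. For NDRG1 the lines were close at 3 h and far apart at 0 h, while for KHDRBS3 they were close at 0 h. SELPLG, a selectin ligand, gave a difference of the opposite sign: it had 4.11 and 3.63 at 3 h against 2.35 and 2.10 at 0 h in INTS11 cells and 2.30 and 2.86 at 3 h against 5.47 and 5.48 at 0 h in N211del cells, a difference of 1.84 ± 0.16.

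**Figure D5:**
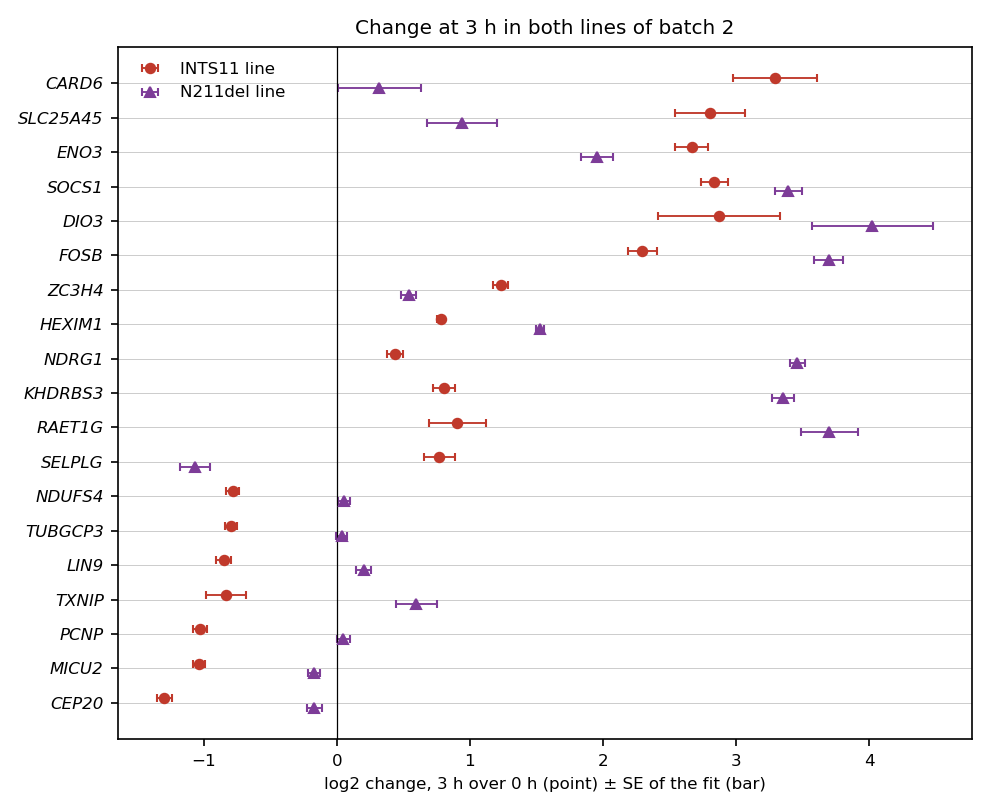
Log2 change at 3 h over 0 h (points) with the standard error of the fit (bars) in the INTS11 line (red circles) and the N211del line (purple triangles) for 19 genes of the text. FOSB, HEXIM1 and SOCS1 lie further right in N211del, CARD6, SLC25A45 and ZC3H4 further right in INTS11, and CEP20, MICU2 and PCNP lie near or below -1 in INTS11 but near 0 in N211del.

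The first batch gave the same line and time against vehicle in other libraries. Its values were whole units per kilobase without a library factor, so it was fitted on its own. Units totalled 7025971 and 7101949 with DMSO and 6761483 and 6631703 with dTAG13, so its balance of directions may carry a difference in depth. With each library centred on its median, 1720 genes were higher and 1610 lower. There 2575 genes (39.1%) differed, and 1275 of 6579 genes tested (19.4%) were higher and 1300 (19.8%) lower at 3 h of dTAG13 than with DMSO, including 550 (8.36%) higher and 79 (1.2%) lower by at least 1.5-fold. Without replicate 2 of dTAG13 the counts were 973 higher and 713 lower, and without replicate 2 of DMSO 750 were lower. Among the 6569 genes tested in both batches, 409 rose by at least 1.5-fold in both, which is 57.1% of the 716 such risers of the second batch and 74.5% of the 549 of the first. For falls of at least 1.5-fold the shared genes numbered 34, 47.9% of 71 in the second batch and 43.0% of 79 in the first, and no gene was called in opposite directions at this size. At any size, 1083 risers and 781 fallers were shared, while 55 risers and 6 fallers of the second batch were called in the opposite direction in the first. That is 45.9% of the 2357 risers and 58.2% of the 1343 fallers of the second batch.

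Of the 15 named risers, 8 were tested in the first batch and all 8 rose there. SOCS1 had 30.9 and 25.6 with dTAG13 against 2.33 and 2.91 with DMSO, and ENO3 had 14.8 and 13.4 with dTAG13 against 2.44 and 2.29 with DMSO. FOSB, which is not among those 15, had 4.73 and 4.18 with dTAG13 against 1.39 and 1.67 with DMSO. Of the 15 named fallers, all were tested and 14 fell. CEP20 had 14.6 and 13.0 with dTAG13 against 26.2 and 27.3 with DMSO, PCNP had 27.4 and 24.8 with dTAG13 against 43.4 and 42.5 with DMSO, and MICU2 had 10.7 and 10.7 with dTAG13 against 18.2 and 18.2 with DMSO. Against vehicle the pairs of these 6 genes, picked from the strong responders, did not overlap. The share of all first-batch genes without overlap was not counted. In the second batch 48.8% of all genes tested had both 3 h libraries above both 0 h libraries and 29.2% had them below. Separated pairs were thus common there. TXNIP was the faller not called, at 14.3 and 12.1 with dTAG13 against 15.2 and 16.9 with DMSO (adjusted p = 0.10).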

How the data were processed

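The 24 TT-seq libraries were deposited as 1 value per gene and library, headed FPKM in the files. Per the submitters' processing notes DESeq2 1.26.0, Picard 2.23.3, STAR 2.7.5c, SAMtools 1.9 and Trim Galore 0.6.6 were run, with mm10 and hg19 as builds; the sources used here do not state the role of each, the counting strand or the labelling pulse. The authors' deposited values behave as a signal per kilobase: in the second batch each is a whole number of units divided by gene length and multiplied by a library factor, 0.565 and 0.577 at 3 h against 0.597 and 0.669 at 0 h, and 91.7% to 95.2% of low values of the INTS11 libraries came out whole within 0.05. Factors that fix the scale between libraries set the direction of small changes. Gene length was recovered for 6806 genes from the whole-number steps of the first-batch values. Of the 6721 with a RefSeq symbol, 6368 had a length within 2-fold of that in RefSeq. The time of each library was taken from its title and time label, since the general treatment text names 3 h only.

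limma 3.58.1 (R 4.3.3) was run on log2(value + 0.1) with a mean for each group over the 12 libraries of a batch, a trended robust spread and Benjamini-Hochberg adjustment over all genes with a mean of at least 0.1; steps were tested on simulated data. Named genes were the 15 largest called rises and falls with a mean of at least 1 over the 4 libraries and groups that did not overlap, and up to 2 of each direction per list. Names of non-coding and uncharacterised loci, including all that start with FAM or KIAA, were left out of the ranked rises and falls. Others were chosen after their values were seen. Members and lists were chosen with earlier results of these data known. Alternatives were other pseudocounts and filters, centring, length correction, a replicate block, averaged pairs, fewer libraries in the fit and a voom fit on whole-number units, which was chosen after seeing the data. Same-numbered 3 h and 0 h libraries did not deviate together. Promoters are from RefSeq on GRCh38.p14. INTS11 was not analysed here, and some genes that the naming rule would pick are not reported here.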

Additional observations from a re-analysis of the deposited data

Results flagged for a closer look

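The change at 3 h over 0 h differed between the INTS11 and N211del lines for 34 genes named for a large rise, a large fall or the difference itself. Each passed by the interaction term of the limma fit at an adjusted p under 0.05, as did 50.9% of all genes tested. Those named for the difference were chosen by this same term. Genes named from the lists are not included here, although some of them passed too. Values are the INTS11 change minus the N211del change on the log2 scale; genes named for a large INTS11 change were chosen on the INTS11 libraries that also enter this term, which favours a larger change in INTS11.

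Among the genes named as strong risers, the INTS11 change was larger by 2.98 for CARD6, 1.86 for SLC25A45, 1.80 for ASB2, 1.78 for KRT13, 1.63 for SKIDA1, 1.56 for PIK3IP1, 0.86 for PRDM7 and 0.71 for ENO3. SOCS1 gave -0.55.

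Among the strong fallers, the difference was -1.43 for TXNIP, -1.13 for CEP20, -1.08 for PCNP, -1.05 for LIN9, -0.95 for AUH, -0.86 for MICU2, -0.84 for both NDUFS4 and PRPS1, -0.83 for TUBGCP3, -0.70 for FAF2, -0.54 for COPZ1 and -0.40 for both DNAJC13 and RGS6. LDAH gave 0.38, since it fell further in N211del cells.

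Among the genes named for the difference itself, NPPB gave 2.44, KISS1 2.41, NRSN2 2.25 and both PROB1 and SELPLG 1.84. NPPB, a natriuretic peptide, was listed at 0 in both INTS11 libraries of 0 h and had 0.390 and 0 at 3 h, while N211del cells had 6.85 and 4.90 at 3 h against 16.6 and 12.4 at 0 h. In the other direction MAFA gave -4.31, FGFR3 -3.23, NDRG1 -3.02, RAET1G -2.80, NATD1 -2.60 and KHDRBS3 -2.55. MAFA, a transcription factor, had 4.51 and 3.72 at 3 h in N211del cells and was listed at 0 in both of that line's 0 h libraries, so its fitted difference depends on the pseudocount.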

How the results depend on the processing

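For 3 h against 0 h, the counts of genes higher and lower were 2503 and 1344. Averaging pairs that agree within sampling noise gave 2275 genes in all, 1626 higher and 649 lower. Length correction gave 1530 higher and 2854 lower, with 474 and 191 by at least 1.5-fold, and a pseudocount of 1 gave 516 and 47 by at least 1.5-fold; the cause was not tested. Leaving out 1 library gave 1932 to 2455 higher and 935 to 1356 lower, and voom on whole-number units, chosen after seeing the data, gave 2615 and 1535. The replicate block gave 2471 and 1316; the numbers do not pair the samples (r = 0.02 between deviations of the 3 h and 0 h libraries), and the block moved no count of calls by over 1.5 times.

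For 3 h against 1 h, the 1083 calls (33 higher, 1050 lower) became 192 (108 and 84) with centred libraries, 38 (15 and 23) with length correction, 0 with averaged pairs, 1 (higher, none lower) with the contrast's libraries alone and 2159 (68 and 2091) with voom. Leaving out 1 library gave 1 to 949 calls, 0 to 27 higher and 1 to 922 lower.

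For the difference between lines, centring gave 1993 above, length correction 1828 above, and averaged pairs 2250 in all, 613 above and 1637 below. In the first batch, averaged pairs gave 1370 calls with 492 lower and length correction 3922 with 2573 lower. Leaving out 1 library gave 1686 to 2033 calls and 713 to 1059 lower.

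Under length correction 11 small rises of named genes turned: CISH -0.12, COX6B1 -0.0117, GTF3C6 -0.19, HNRNPA2B1 -0.14, HSPB1 -0.17, KLF16 -0.0019, KLF4 -0.21, NDUFA13 -0.0619, SUPT5H -0.0366, VAMP8 -0.33 and WDR61 -0.0624 on the log2 scale. Of the 30 genes named for the largest rises and falls, UPK2 alone lost its call at 3 h against 0 h under any alternative run. Depth limits the folds of genes with 1 to 5 units in a 0 h library, such as CARD6, DLX1 and SPAAR.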
